A study of Mus musculus with 6 samples.

Results

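Glycolysis and the pentose phosphate pathway were followed through 33 genes, from glucose uptake to lactate export and from glucose-6-phosphate to the sugars of the pentose branch. The genes were taken by symbol from the 30803 rows of each deposited table, and all 33 were found. They were chosen by their place in the pathway, with earlier results of these data known. The samples were cells of the bone marrow, given in the labels as hematopoietic stem cells (HSCs), from which all blood lineages derive, taken from wild-type mice at 5 months under homeostasis. Cells with much surface MHC class II (MHCII-hi) were sorted apart from cells with little (MHCII-lo), and each fraction gave 3 poly(A) RNA-seq libraries, so n = 3 per group throughout. The gate's markers and the animals behind each library, separate or pooled, were not given in the sources used here. All p-values therefore describe spread among libraries, part or all of which may be technical.

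Glycolysis splits glucose into pyruvate in the cytosol and yields ATP without oxygen, and lactate dehydrogenase recycles its cofactor by turning pyruvate into lactate. The pentose phosphate pathway leaves at glucose-6-phosphate. Its oxidative arm makes NADPH for biosynthesis and antioxidant defence, and its non-oxidative arm makes ribose for nucleotides and returns sugars to glycolysis. HSCs in the hypoxic marrow are known for reliance on glycolysis, with pyruvate dehydrogenase kinases holding pyruvate back from the mitochondria. Many of these steps are served by several isozymes from separate genes, and neutrophils and red cell precursors use some of them at high levels.

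The deposited values were taken to be FPKM, that is, RNA fragments per kilobase of a gene's transcript with the size of the library divided out. This unit was inferred, and read depth is not known. Library sums of FPKM were 305934 to 306945 in MHCII-lo against 333347 to 333530 in MHCII-hi, so the totals differ between the groups. Pearson's r of log2(FPKM + 1) between libraries, across genes and not across replicates, was 0.990 to 0.994 within a group and 0.905 to 0.909 across groups. The class II gene H2-Ab1, which checks the sort, ranged from 9.57 to 10.24 FPKM in MHCII-lo libraries and from 114.07 to 117.96 FPKM in MHCII-hi libraries. Of 12 stem cell markers, Slamf1, Procr, Mecom, Fgd5 and Ctnnal1 were under 1 FPKM in every library. Among the 7 tested, 5 were higher in MHCII-hi and none lower: Ly6a went from 4.78 to 14.6 FPKM and Gata2 from 9.79 to 23.8 FPKM, while Kit was at 10.9 and 10.85 FPKM. The 14 neutrophil markers summed to 17341 to 17401 against 23311 to 23623 FPKM, with 9 higher and 4 lower, the latter being the primary granule genes Elane, Mpo, Prtn3 and Ctsg. Summed B cell markers were 33.01 to 36.6 against 228 to 232 FPKM, with 12 of 12 higher. Erythroid markers were 715 to 736 against 523 to 544 FPKM, with 11 of 12 lower and none higher. Monocyte and macrophage markers were 847 to 873 against 627 to 630.4 FPKM, with 6 of 10 lower and 3 higher. Plasma cell markers were 77.96 to 80.96 against 465 to 471 FPKM, with 8 of 8 higher. Dendritic cell markers were 86.4 to 86.9 against 112 to 116 FPKM (4 of 5 tested higher, 1 lower) and megakaryocyte markers 21.9 to 24.4 against 31.0 to 33.5 FPKM (3 of 6 tested higher, none lower). Summed T and NK cell markers overlapped, at 191 to 195 against 184 to 195 FPKM, with 6 of 10 higher and 3 lower. No marker of these lists was at 0 in all libraries. These lists moved with the groups beside every result that follows, and their part in the results was not tested. In such bulk samples fewer cells of a type and less RNA per cell cannot be told apart.

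The comparison asked how the 33 genes differ between the fractions. The glucose transporters Slc2a1 and Slc2a3, the kinases that make the glycolytic activator fructose-2,6-bisphosphate and the lactate exporter Slc16a3 were higher in MHCII-hi. The other lactate carrier, Slc16a1, was lower. Most enzymes between hexokinase and lactate were lower, and the pentose branch was split. Of the 33 members, 32 had a mean of at least 1 FPKM and were tested (limma on log2(FPKM + 1), Benjamini-Hochberg adjusted p under 0.05 over 12295 genes). In limma 27 passed, or 84.4% against 67.8% of all tested genes. Of these, 10 rose (31.3% of the 32, against 27.2% of all tested genes) and 17 fell (53.1% against 40.5%), so the share that rose was near the background. The other 5, Hk1, Pfkp, Gapdh, Eno3 and Ldhb, did not pass. The libraries of the groups did not overlap for 28 of the 32 members, against 72.8% of all tested genes. These were 10 members higher in every MHCII-hi library (background 29.6%) and 18 lower in every one (background 43.3%). The median log2 change of the 32 was -0.22, against -0.08 over all tested genes, and 0 members passed with a change of 1 or more on that scale, against 5.16% of all tested genes.

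**Figure D1:**
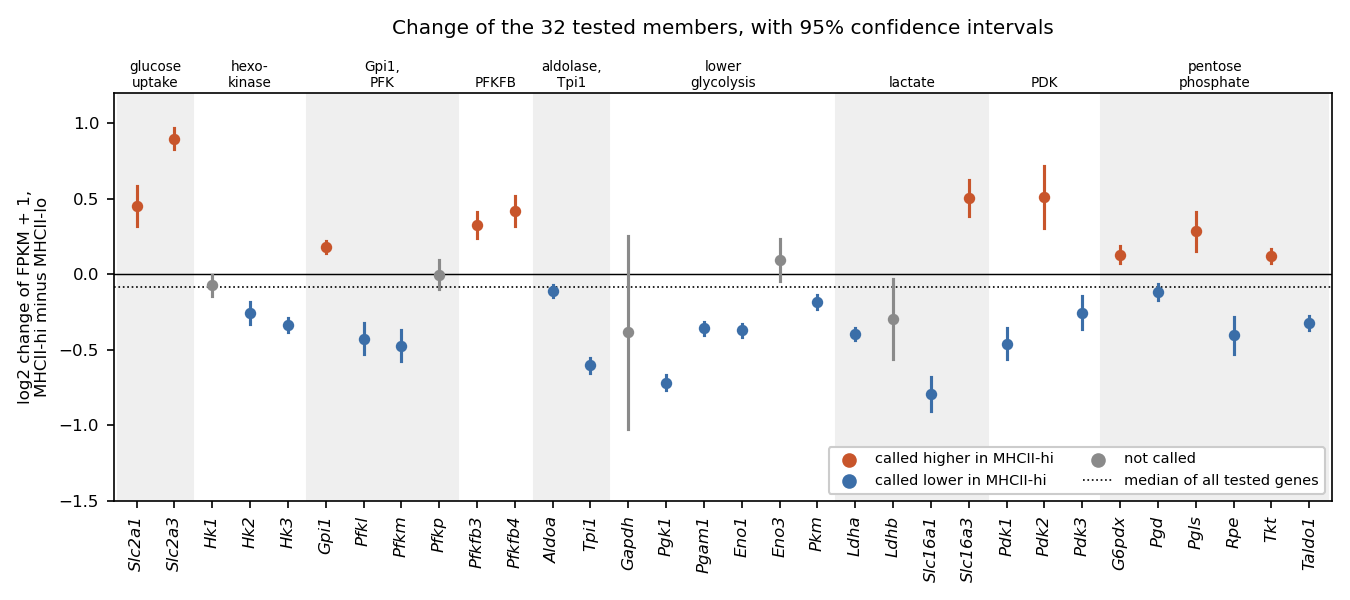
Log2 change of FPKM + 1, MHCII-hi minus MHCII-lo, for the 32 tested members in pathway order; dots are limma estimates, lines their 95% confidence intervals, and the dotted line is the median of all tested genes at -0.08. The 10 members called higher include both glucose transporters, both Pfkfb enzymes and 3 genes of the pentose branch, and the changes run from -0.79 for Slc16a1 to 0.90 for Slc2a3.

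By level, 8 members were at 100 FPKM or more in MHCII-lo, 15 between 10 and 100 and 10 under 10 FPKM. Among the members' own rows Pkm, the pyruvate kinase of most proliferating and blood cells, was the highest in both groups. It stood at 198 ± 2.51 (SD) FPKM in MHCII-lo against 174 ± 2.84 FPKM in MHCII-hi. In MHCII-lo it was followed by Pgk1 at 155 ± 2.98, Aldoa at 151 ± 1.40 and Taldo1 at 151 ± 2.41 FPKM. The libraries of Pgk1, Aldoa and Taldo1 overlapped each other there. In MHCII-hi the order was Pkm, Aldoa at 139.9 ± 1.10, Gpi1 at 136 ± 0.485 and Taldo1 at 121 ± 1.62 FPKM, and Pgk1 was at rank 9 with 93.9 ± 1.65 FPKM. Gapdh was counted and ranked here by its own row alone. Summed with near-identical copies elsewhere in the genome, described below, it stood above Pkm. That sum, only an approximate level, was 1494 ± 26.5 FPKM in MHCII-lo against 1302 ± 2.98 FPKM in MHCII-hi. The median coefficient of variation between libraries over the 33 members was 2.66% in MHCII-lo against 2.59% in MHCII-hi.

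**Figure D2:**
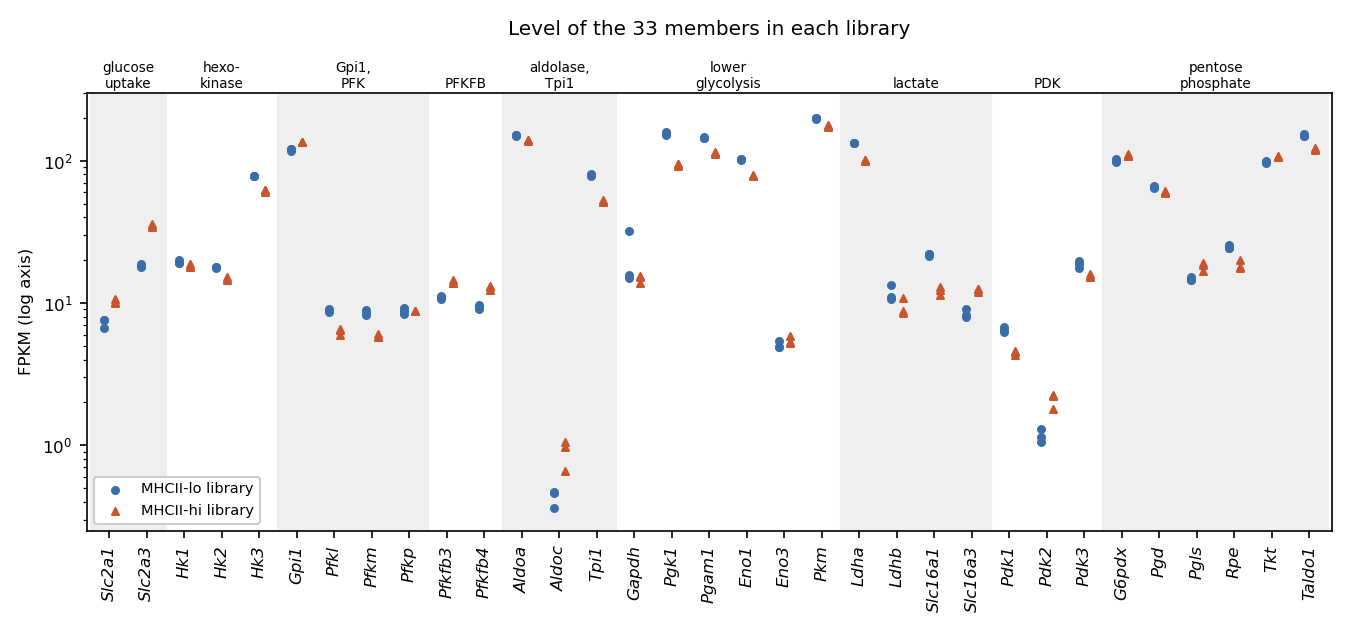
FPKM on a log axis of each of the 33 members in each of the 6 libraries, in pathway order; circles are MHCII-lo and triangles MHCII-hi libraries. Levels of the members' own rows, without near-identical copies, run from under 1 FPKM for Aldoc to 199.94 FPKM for Pkm. For the row named Gapdh, 1 MHCII-lo library stands apart at 31.97 FPKM.

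Both glucose transporters rose. Slc2a3 encodes GLUT3, a high-affinity transporter (GRCm38 chromosome 6, 122727809 to 122801640, minus strand, protein-coding). It read 18.65, 17.95 and 18.31 FPKM in the MHCII-lo libraries and 35.84, 34.83 and 34.16 FPKM in the MHCII-hi libraries. Every MHCII-hi library was above every MHCII-lo library, and the mean was 1.91-fold higher (limma log2 change 0.90 ± 0.03 SE, adjusted p = 6.96e-07). Among the 32 tested members this was the largest rise on the log2(FPKM + 1) scale. Slc2a1 encodes GLUT1, the widely expressed basal transporter. It read 7.54, 6.62 and 7.58 FPKM against 10.20, 10.61 and 10.01 FPKM, a 1.42-fold rise without overlap (limma adjusted p = 0.000351). Slc2a3 made up 71.7 ± 1.23% of the FPKM of the pair in MHCII-lo and 77.3 ± 0.60% in MHCII-hi. Summed, the pair went from 25.6 ± 0.862 to 45.2 ± 0.955 FPKM.

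The hexokinases, which trap glucose in the cell by phosphorylating it, were lower in sum, at 115 ± 0.53 against 94.7 ± 1.25 FPKM. Hk3, the isoform typical of myeloid cells, dominated both groups with 67.6 ± 0.337% and 64.9 ± 0.364% of the sum. It read 77.48, 77.52 and 78.25 FPKM in MHCII-lo against 60.39, 62.10 and 61.81 FPKM in MHCII-hi, 1.27 times higher in MHCII-lo with no overlap (limma adjusted p = 9.23e-06). Hk2, the inducible isoform that can bind mitochondria, fell from 17.9 ± 0.135 to 14.8 ± 0.430 FPKM (limma adjusted p = 0.000310). Hk1, the general isoform, stood at 19.4 ± 0.457 and 18.4 ± 0.334 FPKM. It did not pass in limma (adjusted p = 0.0618), with a 95% interval of the log2 change from -0.14 to -0.0032. It passed as lower when every library was rescaled to the same total (limma log2 change -0.19) and with the trend on transcript length and GC removed (limma log2 change -0.29). Its share of the family went from 16.9 ± 0.373% to 19.5 ± 0.457%, without overlap.

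At the committed step the isozymes moved apart. Gpi1, which turns glucose-6-phosphate into fructose-6-phosphate at the fork with the pentose branch, rose. Its libraries read 117.71, 120.21 and 121.00 FPKM against 135.80, 136.06 and 135.12 FPKM (1.13-fold, limma log2 change 0.18, adjusted p = 9.70e-05). With every library rescaled to the same total the change was 0.059 and still passed (limma adjusted p = 0.0168). Phosphofructokinase commits the sugar to glycolysis and is a tetramer of liver (Pfkl), muscle (Pfkm) and platelet (Pfkp) subunits. In MHCII-lo the 3 were level, at 8.82 ± 0.248, 8.53 ± 0.364 and 8.76 ± 0.416 FPKM. In MHCII-hi Pfkl read 6.45, 6.52 and 5.96 FPKM and Pfkm 5.73, 6.06 and 5.80 FPKM, and both fell (limma adjusted p = 0.000156 and 8.14e-05). Pfkp read 8.76, 8.72 and 8.72 FPKM there, inside the MHCII-lo range of 8.36 to 9.19 FPKM. Its log2 change did not pass (limma adjusted p = 0.960, 95% interval -0.10 to 0.09), and it was called lower with rescaling to the same total and with the length and GC trend removed (limma log2 changes -0.11 and -0.16). The share of Pfkp among the 3 went from 33.5 ± 1.17% to 41.8 ± 0.821%, without overlap.

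The bifunctional enzymes Pfkfb3 and Pfkfb4 set the level of fructose-2,6-bisphosphate, the activator of phosphofructokinase. Pfkfb3, whose kinase activity far exceeds its phosphatase activity, read 11.07, 11.25 and 10.59 FPKM in MHCII-lo against 13.72, 14.42 and 13.90 FPKM in MHCII-hi. Pfkfb4 read 9.30, 9.01 and 9.72 against 13.13, 12.26 and 13.01 FPKM. Both rose without overlap, by 1.28-fold and 1.37-fold (limma adjusted p = 0.000204 and 0.000133). Their shares of the pair overlapped between the groups, with Pfkfb3 at 54.0 ± 1.72% and 52.3 ± 1.57%.

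Below phosphofructokinase, 7 trunk enzymes fell, by unequal amounts: Aldoa, Tpi1, Pgk1, Pgam1, Eno1, Pkm and Ldha. Among these Aldoa, the main aldolase, fell least, from 151 ± 1.40 to 139.9 ± 1.10 FPKM (limma log2 change -0.11, adjusted p = 0.000716), and its call was lost when immunoglobulin and mitochondrial rows were removed before rescaling (limma log2 change -0.037, adjusted p = 0.0691). A second row with the symbol Aldoa held 0.60 to 1.30 FPKM and was not used. Aldoc, the brain aldolase, was the 1 member under the minimum, at 0.36, 0.46 and 0.47 FPKM in MHCII-lo against 0.97, 0.66 and 1.05 FPKM in MHCII-hi. Tpi1, which interconverts the triose phosphates, read 78.02, 79.02 and 80.47 against 51.55, 52.66 and 51.11 FPKM. It was 1.53 times higher in MHCII-lo without overlap (limma log2 change -0.60 ± 0.02 SE, adjusted p = 1.12e-06). Pgk1 makes the first ATP of the pathway (chromosome X, 106187100 to 106203699, plus strand). It fell most among the trunk enzymes, from 154.02, 158.28 and 152.55 FPKM to 91.99, 95.02 and 94.64 FPKM (limma log2 change -0.72 ± 0.02 SE, adjusted p = 5.56e-07).

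Pgam1, Eno1 and Pkm, which carry the sugar on to pyruvate, also fell. Pgam1 went from 145 ± 0.361 to 113 ± 1.94 FPKM (limma adjusted p = 4.70e-06) and Eno1, the general enolase, from 102 ± 0.635 to 78.9 ± 0.830 FPKM (limma adjusted p = 3.23e-06). Pkm fell by less, with 195.22, 199.05 and 199.94 against 176.99, 171.32 and 174.37 FPKM (limma log2 change -0.18 ± 0.02 SE, adjusted p = 0.000131). The values are per gene, so the M1 and M2 forms of Pkm were not separated. Eno3, the muscle enolase, stood at 5.08 ± 0.298 and 5.49 ± 0.352 FPKM with overlapping libraries. It did not pass (limma adjusted p = 0.191, 95% interval of the log2 change -0.04 to 0.23), and with immunoglobulin and mitochondrial rows removed it was called higher (limma log2 change 0.16, adjusted p = 0.0481).

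Gapdh was unlike its neighbours in the pathway. The enzyme oxidises the triose phosphate and is usually among the most abundant transcripts, but its row (chromosome 6, 125161715 to 125166467, minus strand) read 15.63, 31.97 and 14.95 FPKM in MHCII-lo against 15.56, 15.11 and 13.71 FPKM in MHCII-hi. The MHCII-lo library of replicate 2 stood apart from the other 5, and the groups overlapped (limma adjusted p = 0.240, log2 change -0.39). Without that library the log2 change was -0.046 (limma adjusted p = 0.534). The GENCODE M21 annotation holds many processed pseudogenes of Gapdh, copies of its mRNA inserted elsewhere in the genome. In the files 76 genes outside the locus aligned to the Gapdh transcript at 95% identity or more over at least 200 bases, and 74 of them are annotated as pseudogenes. Together they held 1489, 1432 and 1499 FPKM in MHCII-lo against 1284, 1290.2 and 1288 FPKM in MHCII-hi, so the row named Gapdh held 1.40% and 1.14% of the sum. The treatment of reads that fit more than 1 gene was not given in the sources used here, so a single row of this family is uncertain.

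Summed with these copies, Gapdh stood at 1494 ± 26.5 FPKM in MHCII-lo against 1302 ± 2.98 FPKM in MHCII-hi, without overlap. In a fit with copies summed into their members, chosen after the data were seen, it was called lower (limma log2 change -0.20, adjusted p = 2.49e-05). The copies differ in length, so a sum of FPKM is only an approximate level. Of the 32 copies with enough signal, 20 fell, 3 rose and 9 did not pass in limma. Over all tested genes 40.5% fell and 27.2% rose. Reads may be shared among copies this alike, so the 32 are not separate outcomes. The highest, Gm5559 and Gm7336, read 150.5 to 163.8 and 142.6 to 159.98 FPKM over the 6 libraries. Near-identical copies in the files were found for 6 other members, namely Eno1, Ldha, Pgam1, Pgk1, Pkm and Tpi1. For Eno1 the copies, with Gm4735 and Eno1b foremost, held 44.3 ± 1.64 and 32.6 ± 1.41 FPKM, and Eno1 itself 69.8% and 70.8% of the sum. For the remaining 5 members the member's own row held at least 83.3% of the sum. Each of these 6 members was lower in every MHCII-hi library with and without its copies.

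**Figure D3:**
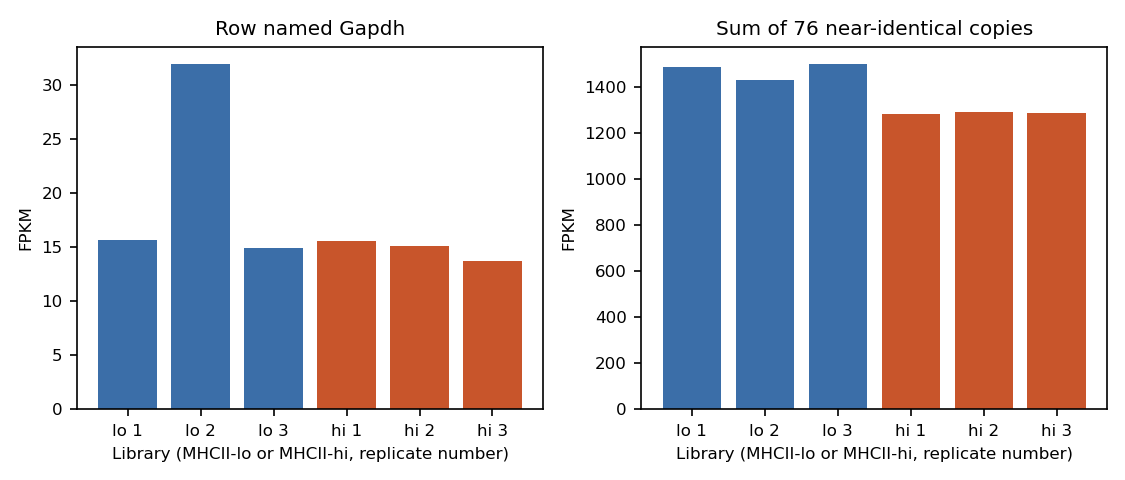
FPKM of the row named Gapdh (left) and of its 76 near-identical copies summed (right) in each of the 6 libraries; blue bars are MHCII-lo, orange bars MHCII-hi. The copies hold 1284 to 1499 FPKM per library, the named row 13.71 to 31.97 FPKM.

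At the end of glycolysis the lactate carriers moved in opposite directions and stood level in MHCII-hi. Slc16a1 encodes MCT1, a proton-linked carrier that moves lactate and pyruvate in either direction (chromosome 3, 104638668 to 104658462, plus strand). It read 21.40, 22.12 and 22.13 FPKM in MHCII-lo against 12.30, 12.99 and 11.41 FPKM in MHCII-hi, the largest fall among the tested members (1.79 times higher in MHCII-lo, limma log2 change -0.79 ± 0.05 SE, adjusted p = 1.14e-05). Slc16a3 encodes MCT4, the carrier of strongly glycolytic cells (chromosome 11, 120948480 to 120960868, plus strand). It read 9.01, 8.29 and 7.95 FPKM against 12.44, 12.61 and 11.92 FPKM, a 1.46-fold rise (limma log2 change 0.50 ± 0.05 SE, adjusted p = 0.000122). Neither gene's groups overlapped. With the length and GC trend removed the Slc16a3 change was smaller, at 0.28 (limma adjusted p = 0.00265). Slc16a3 went from 27.8 ± 1.66% of the pair in MHCII-lo to 50.2 ± 0.92% in MHCII-hi, the largest shift of any isozyme share examined. Summed, the pair fell from 30.3 ± 0.191 to 24.6 ± 1.15 FPKM. Bsg, the chaperone that both carriers need at the membrane, fell from 89.2 ± 2.14 to 68.9 ± 3.94 FPKM (limma adjusted p = 0.000263).

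Of the lactate dehydrogenase subunits, Ldha, of the form suited to making lactate, read 132.44, 134.09 and 132.76 FPKM against 101.89, 100.69 and 100.12 FPKM and fell (limma log2 change -0.40 ± 0.02 SE, adjusted p = 1.81e-06). Ldhb, of the form suited to using lactate, stood at 11.7 ± 1.49 and 9.38 ± 1.29 FPKM with overlapping libraries. It missed the threshold (limma adjusted p = 0.0507, 95% interval of the log2 change -0.56 to -0.03) and passed under 4 alternatives, with a log2 change of -0.39 without the MHCII-hi library of replicate 3. The Ldha share overlapped between the groups, at 91.9 ± 0.891% and 91.5 ± 1.13%.

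The pyruvate dehydrogenase kinases, which switch off the entry of pyruvate into the citric acid cycle, differed in direction. Pdk1, the hypoxia-inducible form, read 6.58, 6.29 and 6.73 FPKM against 4.56, 4.54 and 4.34 FPKM and fell (limma adjusted p = 8.28e-05). Pdk3, the most abundant of the 3, fell from 18.7 ± 1.05 to 15.5 ± 0.451 FPKM (limma adjusted p = 0.00226). Pdk2, named with Pdk4 among the regulators of HSC quiescence, rose from a low level, with 1.29, 1.15 and 1.06 FPKM against 1.81, 2.26 and 2.20 FPKM (1.79-fold, limma log2 change 0.51 ± 0.08 SE, adjusted p = 0.00164). Its share of the 3 kinases went from 4.41 ± 0.253% to 9.44 ± 0.91%. Pdk4 was under 0.13 FPKM in all 6 libraries.

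In all, 21 isozyme shares in 9 families were compared. The groups did not overlap for 15 of them, in 7 families, and overlapped for all shares of the Pfkfb and lactate dehydrogenase pairs as well as for Hk2 and Pdk3. For the levels of single genes, the groups did not overlap in 72.8% of all tested genes. In families of a pair each share mirrors the other and gives the same test, so the 21 are not separate results. A two-sided exact permutation test of 3 against 3 cannot go below p = 0.1, which each of the 15 reached (adjusted p = 0.14 over the 21). The 6 shares that overlapped had an exact permutation p between 0.2 and 0.6.

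**Figure D4:**
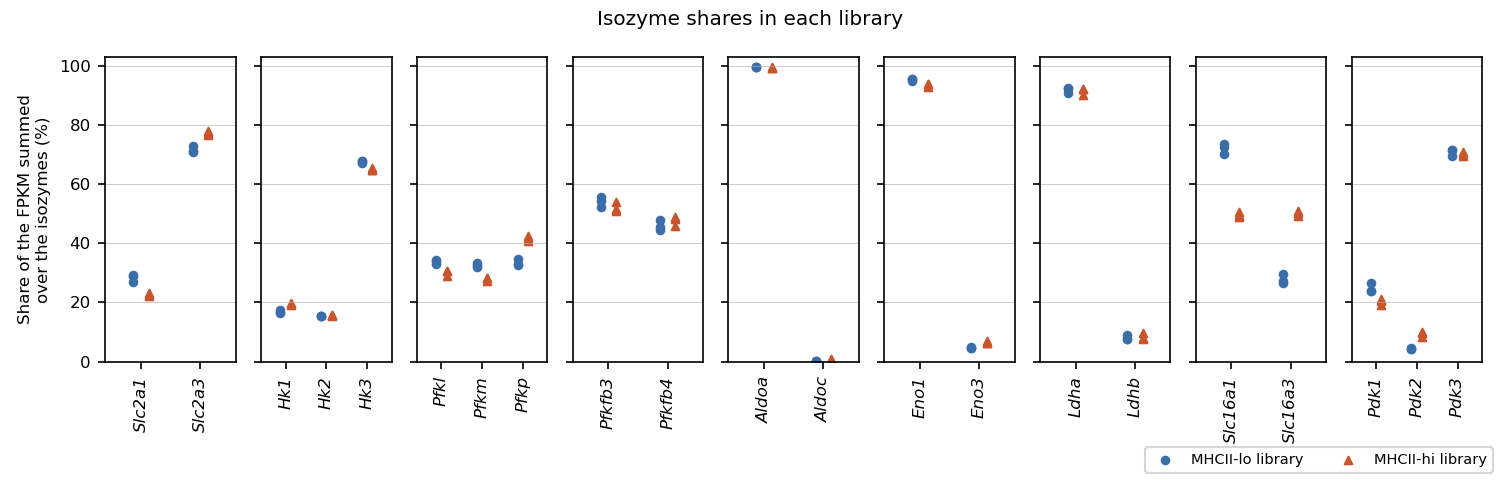
Share of each isozyme in the FPKM summed over its family, in percent, for the 9 families and 6 libraries; circles are MHCII-lo and triangles MHCII-hi libraries. The widest separation is for the lactate carriers, where Slc16a3 goes from 27.8% to 50.2%.

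Promoter sequence was examined for the called members with the largest falls on the log2(FPKM + 1) scale, Slc16a1 and Pgk1, and the largest rises, Slc2a3 and Pdk2. The RefSeq table (GRCm38.p6) held windows for 32 of the 33 members, and Slc2a3 was not among them. The letters ACGTG and GCGTG, the core of the hypoxia response element, were searched on both strands in the 250 bases before each annotated start. The E-box CACGTG holds ACGTG on both strands and so counts as 2 matches of it. The windows are shown 5′ to 3′ on the gene's strand, with matches of ACGTG or GCGTG on either strand in capitals.
Slc16a1, chr3:104638414-104638663, plus strand: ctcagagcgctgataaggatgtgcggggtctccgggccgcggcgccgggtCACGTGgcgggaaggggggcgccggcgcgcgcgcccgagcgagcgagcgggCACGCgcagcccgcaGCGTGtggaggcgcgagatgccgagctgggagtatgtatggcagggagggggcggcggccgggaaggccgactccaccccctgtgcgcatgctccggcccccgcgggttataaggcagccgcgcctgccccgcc
Pgk1, chrX:106186850-106187099, plus strand: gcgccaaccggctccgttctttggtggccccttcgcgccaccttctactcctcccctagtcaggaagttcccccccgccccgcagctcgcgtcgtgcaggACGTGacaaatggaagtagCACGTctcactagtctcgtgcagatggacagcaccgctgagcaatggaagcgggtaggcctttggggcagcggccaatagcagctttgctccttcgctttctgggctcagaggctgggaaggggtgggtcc
Pdk2, chr11:95041372-95041621, minus strand: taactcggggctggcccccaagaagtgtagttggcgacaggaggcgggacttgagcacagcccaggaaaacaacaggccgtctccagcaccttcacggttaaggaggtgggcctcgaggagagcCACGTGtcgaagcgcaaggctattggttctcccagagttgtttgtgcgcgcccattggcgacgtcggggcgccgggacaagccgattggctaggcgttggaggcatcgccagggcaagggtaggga
The Slc16a1 window held 2 matches of ACGTG, both within a single CACGTG, and 2 of GCGTG. The Pgk1 window held 2 separate matches of ACGTG and no CACGTG, and the Pdk2 window held a CACGTG. A second annotated start of Pdk2 had neither motif. Among the 47 windows of the members 37, or 78.7%, held ACGTG or GCGTG, against 38.6% of all 32851 windows in the table. Some genes have several windows, which can overlap, so windows are not separate. By gene, 29 of 32 members held either motif in at least 1 window, against 11226 of 27025 genes. The letters stood in 9 of 11 windows of members that rose and in 21 of 28 windows of members that fell. By gene these were 8 of 9 and 15 of 17 members, so the letters occurred on both sides. Base composition was not matched in this description.

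The pentose phosphate branch was split within both of its arms. G6pdx, the rate-limiting dehydrogenase at its entry (chromosome X, 74409483 to 74429194, minus strand), read 102.43, 100.28 and 97.15 FPKM in MHCII-lo against 108.67, 108.51 and 110.71 FPKM in MHCII-hi. The groups did not overlap, but the rise was small (1.09-fold, limma log2 change 0.13 ± 0.02 SE, adjusted p = 0.00265), and it was lost when every library was rescaled to the same total (limma log2 change 0.0076, adjusted p = 0.790). Pgls, the lactonase of the second step, read 15.31, 14.48 and 14.47 against 18.59, 16.77 and 19.21 FPKM and rose 1.23-fold (limma adjusted p = 0.00297), a call lost with the length and GC trend removed (limma adjusted p = 0.0504). Pgd, the dehydrogenase of the third step, fell from 65.3 ± 1.25 to 60.1 ± 0.769 FPKM (limma log2 change -0.12, adjusted p = 0.00298), and that call was lost with immunoglobulin and mitochondrial rows removed (limma log2 change -0.044, adjusted p = 0.119).

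In the non-oxidative arm the carbon-shuffling enzymes Tkt and Taldo1 moved in opposite directions. Taldo1, transaldolase, read 153.89, 149.46 and 150.03 FPKM against 120.37, 119.34 and 122.51 FPKM and fell (limma log2 change -0.32 ± 0.02 SE, adjusted p = 1.10e-05). Tkt, transketolase, read 96.96, 98.07 and 99.45 against 105.42, 106.30 and 108.69 FPKM and rose 1.09-fold (limma log2 change 0.12 ± 0.02 SE, adjusted p = 0.00147). Rescaling to the same total took the Tkt change to 0.00018 (limma adjusted p = 0.994), and removal of the length and GC trend to 0.026 (limma adjusted p = 0.282). Rpe, the epimerase, fell from 24.7 ± 0.667 to 18.5 ± 1.33 FPKM (limma adjusted p = 0.000442). Rpia, the isomerase that makes ribose-5-phosphate and is outside the 33, fell further, from 19.3 ± 0.551 to 10.95 ± 0.413 FPKM (limma adjusted p = 4.64e-06). Over the branch 3 of 6 members rose and 3 fell, against 27.2% and 40.5% of all tested genes. As a share of the library's FPKM the 6 made up 0.148 ± 0.0013% in MHCII-lo against 0.130 ± 0.0015% in MHCII-hi, and the 27 glycolysis members 0.446 ± 0.0052% and 0.346 ± 0.0011%. The near-identical copies of Gapdh and other members are not counted in these shares.

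Other genes of these routes were taken from lists. Of 13 tested further glycolysis genes, 3 rose (23.1%, against 27.2% of all tested genes), 4 fell (30.8% against 40.5%) and 6 did not pass in limma, shares near or below the background. Adpgk, a glucokinase that spends ADP in place of ATP, rose 1.93-fold, from 26.2 ± 0.365 to 50.6 ± 0.605 FPKM (limma adjusted p = 2.19e-07), and the transporter Slc2a6 1.19-fold (limma adjusted p = 0.00655). Another transporter of that family, Slc2a9, fell from 1.73 ± 0.0265 to 1.33 ± 0.215 FPKM (limma adjusted p = 0.0467). Pklr, the pyruvate kinase of liver and red cells, fell from 13.6 ± 0.373 to 7.76 ± 0.0231 FPKM (limma adjusted p = 2.58e-06). Erythroid markers fell in 11 of 12 cases, and their part in the Pklr result was not tested. Of 6 tested further pentose genes, 4 fell (66.7%, against 40.5% of all tested genes), among them Rpia and Prps1, which makes the activated ribose for nucleotides, and none rose. Prps1 went from 33.4 ± 1.09 to 21.2 ± 0.555 FPKM (limma adjusted p = 6.46e-06). Of 5 tested gluconeogenesis genes 3 fell, Pck2, Slc37a4 and G6pc3 (60.0%, against 40.5% of all tested genes), and none rose.

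The mitochondrial side of pyruvate was lower. Of 10 genes for pyruvate entry, 9 fell, against 40.5% of all tested genes, and Pdp2 did not pass, with a median log2 change of -0.39. They include the carriers Mpc1 and Mpc2 and the dehydrogenase subunits Pdha1, Pdhb, Dlat and Dld. Dld, a subunit shared with other dehydrogenases, fell from 34.7 ± 1.04 to 20.5 ± 0.395 FPKM (limma adjusted p = 2.14e-06) and Dlat from 12.7 ± 0.166 to 8.40 ± 0.0321 FPKM (limma adjusted p = 6.28e-06). Of 18 genes listed for the citric acid cycle, 16 fell (88.9%) and Idh3g and Ogdh did not pass, with a median of -0.46. The list includes Mdh1, the malate dehydrogenase of the cytosol, which is among those that fell. Idh3a fell from 20.2 ± 0.184 to 11.6 ± 0.632 FPKM (limma adjusted p = 7.25e-06) and Fh1, fumarase, from 23.9 ± 0.257 to 13.8 ± 0.554 FPKM (limma adjusted p = 3.23e-06). Side by side, the median was -0.26 over the 26 tested glycolysis members and 0.0015 over the 6 pentose members, against -0.08 over all tested genes.

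Listed genes of the hypoxia response, which induces many glycolytic enzymes, were called about as often as genes at large, or less. The list mixes targets with regulators, among them Vhl, which acts against HIF, and leaves out the 33 members. Its counts therefore give no direction of the response, which was not tested. Of 18 tested, 5 rose (27.8%, against 27.2% of all tested genes), 6 fell (33.3% against 40.5%) and 7 did not pass in limma, with a median log2 change of -0.07. Hif1a, the oxygen-regulated subunit, rose from 18.9 ± 0.814 to 21.8 ± 0.300 FPKM (limma adjusted p = 0.00249). The targets Ddit4 and Vegfa rose 1.55-fold and 1.38-fold (limma adjusted p = 8.60e-05 and 0.000201). The target Higd1a fell from 7.33 ± 0.238 to 3.16 ± 0.568 FPKM (limma adjusted p = 0.000103). Vhl, which marks HIF proteins for destruction, fell from 11.04 ± 0.511 to 7.05 ± 0.411 FPKM (limma adjusted p = 7.58e-05).

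**Figure D5:**
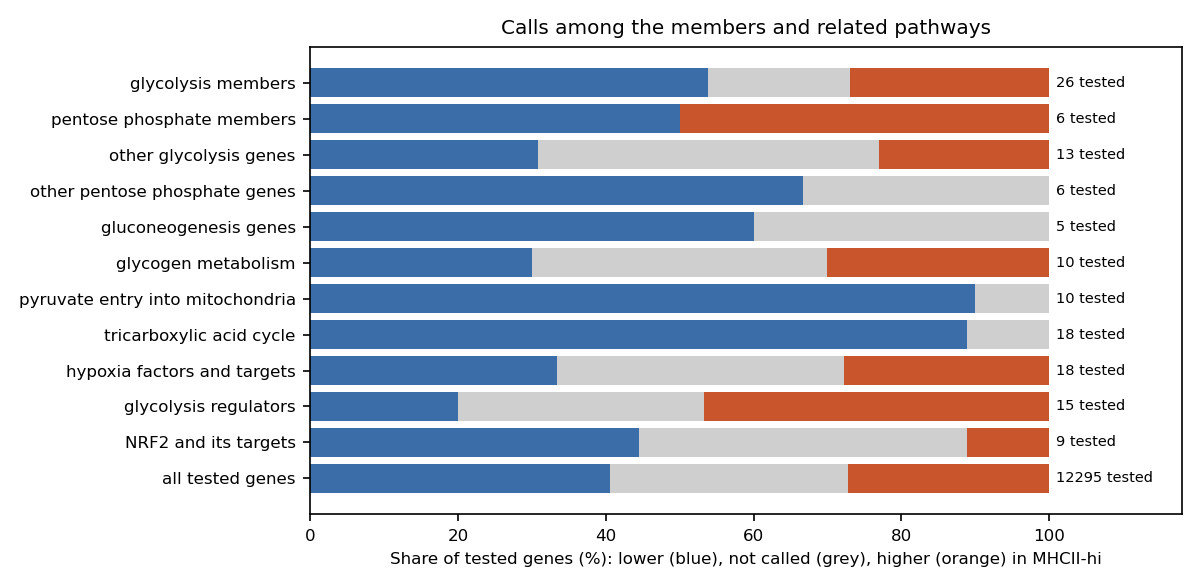
Share of tested genes called lower (blue), not called (grey) and called higher (orange) in MHCII-hi by limma, in percent, for the members and the related lists, with the number tested at the right. The lists of pyruvate entry and of the citric acid cycle have 9 of 10 and 16 of 18 genes called lower, against 40.5% of all tested genes. The latter list includes the cytosolic Mdh1.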

How the data were processed

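Poly(A) RNA from 6 libraries of sorted bone marrow cells was sequenced, and the labels give the group of each. The submitters' processing notes list fastp (read trimming), HISAT2 (alignment) and StringTie (transcript levels), with GRCm38 and mm10 as builds. Versions, settings and the treatment of reads that fit more than 1 gene were not given in the sources used here. Values that the authors deposited were taken as FPKM, since they have 2 decimals and unequal totals and the file headers name no unit; without a known depth, no counting intervals were computed. Where a symbol occurred more than once (70 extra rows), the row with the highest mean kept it.

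Genes averaging 1 FPKM or more were tested on log2(FPKM + 1), which understates the change of low genes, in limma 3.58.1 under R 4.3.3 (mean-variance trend, two-sided, Benjamini-Hochberg over 12295 genes). Folds are ratios of mean FPKM, and values are means ± SD unless SE is named. The fit was tested on simulated data. Isozyme shares were tested by exact permutation in scipy 1.17.1. Near-identical copies were found with blastn 2.17.0 against GENCODE M21 transcripts, and coordinates come from that annotation of GRCm38, which matched 32 of the 33 members to a single gene (Aldoa matched more). Promoter windows come from RefSeq on GRCm38.p6. The members and lists were chosen with earlier results of these data known. All 33 members are named, and from each further list up to 2 genes per direction with the largest called changes, or all where a count is 5 or fewer. Mpc1, Mpc2, Pdha1, Pdhb, Mdh1, Hif1a, Pdk4 and the Gapdh copies were named after their values were seen. The alternatives were each library left out, a block on the replicate number, pseudocounts of 0.1 and 0.01, a minimum mean of 5 FPKM or none, no trend, array weights, median-of-ratios scaling, quantile normalization, and rescaling to the same total with and without immunoglobulin and mitochondrial rows. Added after seeing the data were removal of a fitted trend on GC content and transcript length, and the summing of near-identical copies.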

Additional observations from a re-analysis of the deposited data

How the results depend on the processing

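Of the 27 member calls, 22 kept their direction and side of the threshold under every alternative in which they were run, and none reversed. There were 19 alternatives, of which Pdk2 was outside that of a mean of at least 5 FPKM and Aldoa outside the length and GC fit. The 5 exceptions, G6pdx, Tkt, Pgls, Pgd and Aldoa, are changes of 0.28 or less on the log2 scale, and each was lost under 1 or 2 alternatives, given beside its value above. Other called changes moved by over 1.5 times and still passed. With rescaling to the same total these were Gpi1 (0.059), Pfkfb3 (0.21), Pgls (0.17), Aldoa (-0.23), Pkm (-0.30) and Pgd (-0.24). With immunoglobulin and mitochondrial rows removed they were Pkm (-0.11), G6pdx (0.20) and Tkt (0.19), with the length and GC trend removed Hk2 (-0.40), Pkm (-0.31), Slc16a3 (0.28) and Pdk3 (-0.14), and with pseudocounts of 0.1 and 0.01 Pdk2 (0.79 and 0.83). The count of members called higher ranged from 8 to 11 and the count called lower from 15 to 20. The counts over all genes moved too. With rescaling to the same total, 8 of 32 members were higher and 20 lower, against 2534 and 6244 of 12297 tested genes. With immunoglobulin and mitochondrial rows removed, 11 of 32 were higher and 15 lower, against 3696 and 4239 of 12043 tested genes. The median log2 change of the members was -0.34 with every library rescaled to the same total and -0.15 with immunoglobulin and mitochondrial rows removed before rescaling; the median of all tested genes was -0.18 and -0.03 under these settings, against -0.08. Leaving out each library in turn gave a member median between -0.22 and -0.15. Pfkp, which was not called, changed sign with quantile normalization (0.016), median-of-ratios scaling (0.028), removal of immunoglobulin and mitochondrial rows (0.064) and without the MHCII-lo library of replicate 2 (0.029; range over libraries left out -0.032 to 0.029), and Eno3, also not called, with rescaling to the same total (-0.0082). The cause of these differences was not tested. With the replicate number as a block, 10 members were called higher and 17 lower, with a median of -0.22, and no member's call changed. Of all 12295 genes tested with that block, 3222 were higher and 4809 lower. Same-numbered libraries correlated at 0.0626, 0.0019 and 0.0804 in their deviations from the group means, not every library correlated best with its own number, and the numbers were not taken as pairs. Depth is unknown, so how far it limits the low members Aldoc and Pdk2 cannot be stated.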

Other observations

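Regulators of glycolysis were more often higher than lower in MHCII-hi. Of 15 tested in limma, 7 rose, 3 fell and 5 did not pass, against 27.2% higher and 40.5% lower over all tested genes, with a median log2 change of 0.10. Max, the partner of Myc, rose from 28.96 ± 1.22 to 44.4 ± 0.884 FPKM (limma adjusted p = 9.82e-06). Myc, which activates many glycolytic genes and was chosen after its value was seen, rose 1.44-fold (limma adjusted p = 3.36e-05). The 3 that fell were Arrdc4, Mlx and Akt1, of which Arrdc4 went from 3.97 ± 0.365 to 3.16 ± 0.222 FPKM (limma adjusted p = 0.0167).

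Of 10 tested glycogen genes, 3 rose (30.0%, against 27.2% of all tested genes), 3 fell (30.0% against 40.5%) and 4 did not pass in limma, shares near or below the background. The phosphorylase Pygl, which releases glucose units from glycogen, rose from 38.0 ± 0.811 to 48.4 ± 0.806 FPKM (limma adjusted p = 3.06e-05), while Ugp2, which makes the activated glucose for glycogen, fell from 30.5 ± 0.126 to 24.5 ± 1.03 FPKM (limma adjusted p = 0.000213). The antioxidant factor NRF2, its inhibitor Keap1 and its targets gave 9 tested genes. Hmox1, heme oxygenase, was the 1 that rose, 1.95-fold to 27.7 ± 0.492 FPKM (limma adjusted p = 2.00e-05). Keap1, Gclm, Txnrd1 and Gsr fell and 4 did not pass, so that 11.1% were higher and 44.4% lower against 27.2% and 40.5% of all tested genes. The list mixes an inhibitor with targets, so its counts give no direction of the NRF2 response, which was not tested. Gsr, which spends the NADPH of the pentose branch on glutathione, went from 149 ± 0.677 to 122 ± 2.47 FPKM (limma adjusted p = 2.03e-05).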
